A study of Mus musculus with 4 samples.

Results

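The Lama1-panel nuclei were 1002 lesional nuclei chosen by their counts of 6 genes, Lama1, Dcdc2a, Slc7a11, Col4a6, Col13a1 and Kl. They came from 23489 barcodes in all, of which 16490 were lesional and held at least 757 unique molecular identifiers (UMIs, each of which counts 1 captured transcript). A nucleus qualified where Csf1r, Slc17a7, Gad2, Mog, Cd247, Aqp4, Flt1 and Ibsp, genes of myeloid cells, neurons, oligodendrocytes, T cells, astrocytes, endothelium and bone cells, gave at most 1 UMI together. It also needed 3 or more UMIs over the 6 panel genes, and more of them than of each of 3 other fibroblast panels. Those panels, led by Pappa (2203 nuclei), Ranbp3l (1731 nuclei) and Slco4a1 (632 nuclei), supplied the other panel fibroblasts used for comparison.

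The study profiled single nuclei from mouse brain at 21 days after a photothrombotic cortical injury, in which light and a dye clot surface vessels. The Cxcl12-cKO mice carried a tamoxifen-inducible Cre under the fibroblast promoter Col1a2 and floxed Cxcl12, so that recombination reached only cells with Col1a2 activity, and the control genotype was labelled WT. Each genotype was 1 library of nuclei from 2 mice, 1 female and 1 male, mixed at 75% lesion and 25% residual parenchyma. The question of the comparison was what loss of fibroblast CXCL12, a chemokine that attracts and retains leukocytes, does to the lesion. Tamoxifen for this knockout was given in repeated courses after the injury, and the methods describe controls of conditional knockouts in general as induced where relevant, with littermates that lacked Cre or were heterozygous for the floxed allele among them. The deleted part of Cxcl12 was not given in the sources used here.

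Pial fibroblasts form the innermost layer of the meninges and lie on the basement membrane that separates them from the astrocyte endfeet of the brain surface. That sheet is built from laminin trimers and type IV collagen networks, which nidogens and the heparan sulfate proteoglycan perlecan link, and pial cells also carry transporters for amino acids, ions and organic solutes. Lama1 encodes the alpha chain of the laminin typical of embryonic and pial basement membranes, and Col4a6 encodes a type IV collagen chain. Slc7a11 is the cystine/glutamate exchanger, Kl is klotho, a co-receptor for endocrine fibroblast growth factors, Col13a1 is a transmembrane collagen, and Dcdc2a belongs to the doublecortin family of microtubule-binding proteins.

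The lesional matrices held 34769874 UMIs in the control library and 31995274 in the Cxcl12-cKO library, and they shared 22 barcodes, none of them among the Lama1-panel nuclei. The Lama1-panel nuclei held a median of 2829 UMIs and 1662.5 genes, against 3840 UMIs in Pappa-panel, 2991 in Ranbp3l-panel and 4340.5 in Slco4a1-panel nuclei. Their median mitochondrial share was 0.233%. Transcripts of sex-linked genes assigned 412 nuclei to the female and 336 to the male mice, while 108 nuclei held transcripts of both sexes and 146 held neither. All intervals below are 95% intervals of counting error only, levels are a gene's UMIs per 1000000 UMIs of the same nuclei (CPM), and with 1 library per genotype no test was made. Mice of a genotype shared a library, so mouse, library and genotype cannot be told apart.

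The targeted gene, Cxcl12, gave more UMIs under the Cxcl12-cKO label than under the control label. Its level in Lama1-panel nuclei was 89.3 CPM in the female mouse labelled control and 143 CPM in its male partner, and 197 and 189 CPM in the mice labelled Cxcl12-cKO. The mice of the labels did not overlap, as was so in this direction for 15.7% of the 8428 genes compared between the labels. Pooled levels were 126 CPM (110 to 145) from 208 UMIs and 206 CPM (186 to 229) from 365 UMIs, a log2 ratio of 0.71 (0.46 to 0.96). The gene gave a UMI in 26.1% of control and 37.7% of Cxcl12-cKO nuclei, or 9.44% and 14.5% after every nucleus was thinned to 757 UMIs. In the other panel fibroblasts Cxcl12 was at 91.0 CPM under the control label and 199.7 CPM under the Cxcl12-cKO label. By mouse it was there at 92.5 and 91.1 CPM against 240 and 185 CPM, so the rise was not particular to Lama1-panel nuclei. In parenchymal nuclei with 2 or more UMIs of Slc17a7, excitatory neurons outside the rule, the gene was at 2.03 CPM (1.66 to 2.46) and 3.02 CPM (2.55 to 3.56), so it was also higher under the Cxcl12-cKO label there, at a far lower level. The shares of those neurons with a UMI were 4.03% and 6.37%, or 0.183% and 0.202% after thinning, at median depths of 20441 and 22180 UMIs before it. Without the nuclei that held UMIs of other lineages, described below, the log2 ratio in Lama1-panel nuclei was 0.38 (0.09 to 0.67), and with the panels summed after thinning, which left 480 nuclei, it was 0.32 (-0.08 to 0.72), an interval that includes 0. Because the targeted gene gave more UMIs under the Cxcl12-cKO label, control and Cxcl12-cKO name the labels of the libraries throughout. The reads came from the 3′ ends of transcripts and the deleted part was not known, so these counts check nothing about the deletion.

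Cxcr4 and Ackr3 encode the receptors of CXCL12. Cxcr4 gave 4 UMIs in the control and 3 in the Cxcl12-cKO nuclei, too few for a comparison at this depth. Ackr3, the scavenging receptor, was at 13.4 and 13.0 CPM, a log2 ratio of -0.04 (-0.95 to 0.87).

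Among the panel genes, Slc7a11 was the most abundant at 1580 CPM and Lama1 the most widely detected, in 68.1% of nuclei at 917 CPM. Slc7a11 gave a UMI in 66.3% of nuclei, and Col4a6 stood at 597 CPM in 56.7%. The other 3 genes were sparse, with Dcdc2a at 187 CPM in 21.6% of nuclei, Col13a1 at 125 CPM in 18.8% and Kl at 44.8 CPM in 11.8%. These levels follow from the choice of nuclei and carry no test. The panel sum had a median of 8 UMIs and a highest value of 78. At the threshold, 141 nuclei held exactly 3 panel UMIs, with Lama1 at 271 CPM and Slc7a11 at 271 CPM. Just outside it, 182 nuclei held 2 panel UMIs and fewer of each other panel, with Lama1 at 181 CPM and Slc7a11 at 217 CPM. A further 346 nuclei had 3 or more panel UMIs but fewer than of another panel. Among them Lama1 was at 527 CPM and Slc6a20a, a proline transporter of meningeal cells, at 1707 CPM, against 759 CPM in the Lama1-panel nuclei.

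Each of the 6 genes was also read in nuclei chosen by the other 5. Lama1 was at 822 CPM (787 to 857) in the 773 nuclei that the other genes chose, and 58.6% of these held a Lama1 UMI. It was at 12.04 CPM in Pappa-panel, 157 CPM in Ranbp3l-panel and 0.956 CPM in Slco4a1-panel nuclei. Slc7a11, read in 670 nuclei chosen without it, was at 1129 CPM, against 144 CPM in Ranbp3l-panel nuclei and under 15 CPM in the remaining panels. Col4a6 was at 478 CPM and at most 33.7 CPM elsewhere. Dcdc2a stood at 169 CPM, Col13a1 at 89.9 CPM and Kl at 43.5 CPM, and the next highest panel for all 3 was again Ranbp3l, at 11.2, 13.5 and 4.52 CPM. The order of the panels is partly fixed, because each left-out gene still counted against a nucleus in the choice of the other panels.

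**Figure D1:**
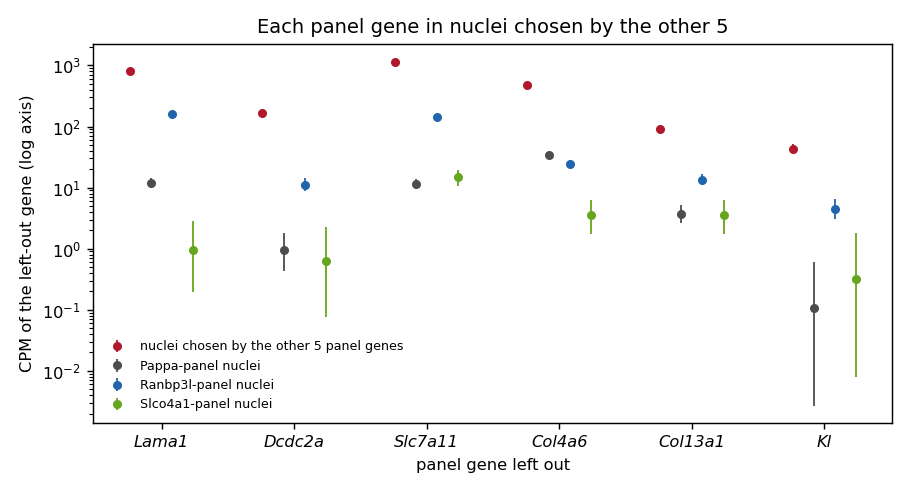
Level of each panel gene (CPM, log axis, with counting intervals) in nuclei chosen by the other 5 panel genes and in the nuclei of the 3 other panels. Each gene was highest in the nuclei that its companions chose, with Lama1 at 822 CPM and Kl at 43.5 CPM.

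The genes occurred together across all 13216 lesional nuclei that passed the exclusion genes, whatever their panel. Of the 1490 nuclei with a Lama1 UMI, 44.8% also held Slc7a11 and 34.2% Col4a6, against 7.80% and 4.97% of nuclei without Lama1, and the median depths were close at 2949.5 and 2753.5 UMIs. Kl was the sparsest gene and the one with the most company. Of its 161 nuclei, 75.8% held Lama1 and 78.3% held Slc7a11. Thinning to 757 UMIs left 750 nuclei with Lama1, of which 35.1% held Slc7a11 against 4.60% of the rest.

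Applied to the parenchymal matrices, the same rule took 49 of 1334 nuclei (3.67%, 2.73 to 4.83%), against 7.58% of lesional nuclei. After thinning the shares were 1.12% and 3.63%. Among lesional nuclei set aside by the exclusion genes, the rule also took 227 of 707 nuclei with 2 or more Aqp4 UMIs (32.1%) and 22 of 981 with 2 or more Csf1r UMIs (2.24%). Astrocytes are known to make Slc7a11, but which panel genes carried the Aqp4 nuclei was not tested. The Aqp4 share was 1.84% after thinning. The panel is therefore not limited to the chosen nuclei.

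The working label of pial fibroblasts held for only some of these nuclei, so they are called by their panel here. The summed level of 9 general fibroblast genes was 3688 CPM, between the 2534 CPM of Ranbp3l-panel and the 5993 CPM of Pappa-panel nuclei. Within that list Pdgfra, a growth factor receptor of fibroblasts, was at 419 CPM in 50.3% of nuclei. A list of 14 leptomeningeal genes outside the panels summed to 12058 CPM, above Pappa-panel nuclei (10040 CPM) and below Ranbp3l-panel (27884 CPM) and Slco4a1-panel nuclei (20463 CPM). In this list the sum was low and the median member was high (log2 0.74 in control and 0.69 in Cxcl12-cKO, against 0.06 and 0.04 over all genes tested). The calcium channel gene Trpm3 alone gave 17932 CPM of the sum in Ranbp3l-panel nuclei, against 4679 CPM here. A dural list of 8 genes was at 2711 CPM, against 4364, 2766 and 6040 CPM.

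Lists of other cell types were present at lower levels. The astrocyte, oligodendrocyte, neuronal, myeloid, T cell, endothelial and osteoblast lists include the exclusion genes, which the rule held to at most 1 UMI together. Low levels of these lists were therefore partly fixed by the choice of nuclei. The astrocyte list summed to 735 CPM, the oligodendrocyte precursor list to 596 CPM and the osteoblast list to 474 CPM. Neuronal genes were at 313 CPM, arachnoid barrier genes at 194 CPM, endothelial genes at 158 CPM, oligodendrocyte genes at 156 CPM and myeloid genes at 147 CPM. Mural genes were at 73.8 CPM, dividing-cell genes at 35.1 CPM, ependymal genes at 29.0 CPM, choroid plexus genes at 27.8 CPM and T cell genes at 12.004 CPM, with Schwann and melanocyte genes at 8.49 and 2.34 CPM. In the endothelial list Pecam1 was in 1.20% and Cldn5 in 0.399% of nuclei, whereas Cdh5 was at 80.5 CPM in 19.6% and the transporter Slco1a4 at 57.7 CPM in 11.3%, against 71.2 and 9.29 CPM in the other panel fibroblasts. Ptprz1, a phosphatase of glial precursors, was in 12.4% and the bone regulator Runx2 in 46.2%, though Runx2 was also at 533 CPM in the other panel fibroblasts.

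The 1002 nuclei were not uniform. All 6 panel genes gave a UMI in 9 nuclei, 5 genes in 70, 4 in 135, 3 in 198, 2 in 308 and a single gene in 282. Slc7a11 led in 438 nuclei, Lama1 in 255, Col4a6 in 185, Col13a1 in 32 and Dcdc2a in 23, with ties in 69. Nuclei held by a single gene differed by which gene it was. The 80 nuclei with only Col4a6 had 4097 CPM of the oligodendrocyte precursor list, with Ptprz1 at 1030 CPM and the glial transcription factor Npas3 at 3064 CPM, and only 3556 CPM of the leptomeningeal list. The 23 nuclei with only Col13a1 had 6706 CPM of the osteoblast list, with osteocalcin (Bglap) at 812 CPM and Col1a2 at 8932 CPM. The 107 nuclei with only Slc7a11 had 403 CPM of the myeloid list and kept a leptomeningeal level of 14104 CPM. In the 71 nuclei with only Lama1 no list of another cell type passed 676 CPM.

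Several leptomeningeal and basement membrane genes outside the panel were higher where more panel genes were found, and others were lower. From nuclei with 1 panel gene to those with 4 to 6, Slc6a20a went from 203 to 1503 CPM and Col15a1, a collagen at the edge of basement membranes, from 61.2 to 462 CPM. Il34, a ligand of the CSF1 receptor, went from 80.3 to 377 CPM. The type IV collagen chain Col4a5 went from 240 to 976 CPM and the laminin chain Lamc1 from 267 to 747 CPM. In the other direction, Slc4a10 went from 889 to 283 CPM, Slc47a1 from 142 to 53.0 CPM, and Bnc2 from 1864 CPM with 1 panel gene to 879 CPM with 5. Median depth did not order these groups in the same way, at 3158.5 UMIs with 1 gene and 2712.5 with 4 to 6. These were genes of the nuclei the panel chose, and the gradient is a description.

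**Figure D2:**
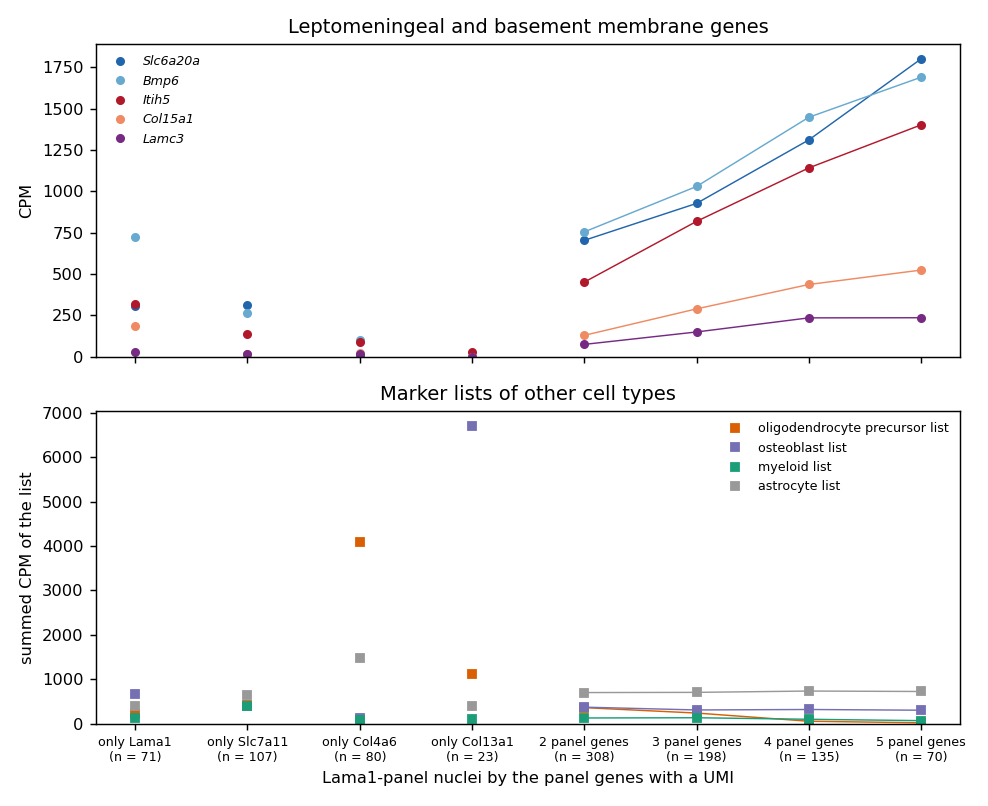
Levels (CPM) of 5 leptomeningeal and basement membrane genes above, and summed levels of 4 marker lists of other cell types below, in Lama1-panel nuclei grouped by which or how many panel genes gave a UMI; n is the number of nuclei and lines join the groups with 2 to 5 genes. Among the groups drawn, Slc6a20a, Bmp6, Itih5, Col15a1 and Lamc3 were highest with 5 panel genes (the 9 nuclei with 6 are not drawn), while the oligodendrocyte precursor list peaked at 4097 CPM with only Col4a6 and the osteoblast list at 6706 CPM with only Col13a1.

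Counted nucleus by nucleus, 114 of 1002 (11.4%, 9.48 to 13.5%) held 3 or more UMIs of the oligodendrocyte precursor list, against 3.83% of the other panel fibroblasts. Of these 114, 82.5% held Col4a6 and 24.6% held Lama1. The myeloid list reached 3 UMIs in 52 nuclei (5.19%, against 3.53%), 78.8% of which held Slc7a11. The osteoblast list reached 5 UMIs in 78 nuclei (7.78%), fewer than the 14.7% of the other panel fibroblasts. Runx2, at 533 CPM in the other panel fibroblasts, gave 449 of the 474 CPM of that list here. Of the 78 nuclei, 56.4% held Lama1. In all 227 nuclei (22.7%) met at least 1 of these limits, against 20.8% in the other panels, and 775 did not. Whether such nuclei were doublets, other cells, free RNA or fibroblasts with Runx2 was not tested. Results are given with and without them where they differ.

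Against the other panel fibroblasts, a gene was called higher or lower where its log2 ratio of CPM, with 0.5 added to each sum, passed 1 in both libraries and kept its sign in each of the 4 mice. Of 14286 genes tested, 496 (3.47%) were higher and 343 (2.40%) lower in Lama1-panel nuclei. This contrast is the one that chose the nuclei, so the calls below describe them and no share is read as evidence. The 15 highest genes were Mageb18, C6, Gm30624, Cecr2, Slc16a12, Pou2af1, Col15a1, Tmem132c, Tbx3, Gm30613, Heph, Il34, Prex2, Dach1 and Gm10790. Col15a1 was at 279.9 and 219.6 CPM in the female and male control mice and at 151 and 232 CPM in the Cxcl12-cKO mice, against 7.54, 9.05, 21.1 and 10.8 CPM in the other panel fibroblasts of the same mice. Its log2 ratio was 4.82 (4.47 to 5.20) in control and 3.54 (3.25 to 3.83) in Cxcl12-cKO. Il34 was at 109.9, 276, 219 and 163 CPM in the 4 mice, against 17.6 to 22.4 CPM. Slc16a12, a monocarboxylate transporter family member, was at 89.3 to 194 CPM, against at most 11.95 CPM. For these 3 genes every mouse was far above its own comparison nuclei.

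Some of the highest genes were sparse. Mageb18, a melanoma antigen family gene, gave a UMI in 5.19% of nuclei and had the largest log2 ratio, 6.62 (5.21 to 9.15) in control and 5.90 (4.72 to 7.69) in Cxcl12-cKO. C6, a terminal complement component, was in 7.88% of nuclei, Heph, a ferroxidase of iron export, in 5.29%, and the transcription factor Tbx3 also in 5.29%. Pou2af1, a coactivator best known from B cells, was at 23.4 CPM. The long noncoding Gm30624 (124 CPM), Gm30613 (117 CPM) and Gm10790 (45.1 CPM), the chromatin regulator Cecr2 (64.1 CPM), the membrane protein gene Tmem132c (175 CPM), the Rac exchange factor Prex2 (192 CPM) and the transcription factor Dach1 (118 CPM) completed the list. Of the 15, 14 were higher with 4 to 6 panel genes than with 1 in both libraries, Dach1 being the exception.

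The 10 lowest genes were Plagl1, Kctd8, Ism1, Slc47a1, Tspan11, Slc4a10, Gm6260, Zfp804b, Tsc22d3 and Slc47a2. Slc4a10, a sodium-driven bicarbonate transporter, was at 535 CPM against 3182 CPM, and it was highest in Slco4a1-panel nuclei at 7451 CPM. The organic cation extruders Slc47a1 and Slc47a2 were at 87.0 and 21.1 CPM against 605 and 161 CPM. Plagl1, an imprinted zinc finger factor, was at 6.73 against 83.6 CPM. Ism1, a secreted protein, was at 37.8 against 321 CPM, and Kctd8, an auxiliary subunit of the GABA-B receptor, at 35.1 against 337 CPM. Both were mostly genes of the Pappa-panel nuclei, at 569 and 605 CPM. The tetraspanin Tspan11 was at 55.3 against 367 CPM, Zfp804b at 38.9 against 234 CPM, the glucocorticoid-induced Tsc22d3 at 21.1 against 155 CPM and Gm6260 at 2.63 against 40.1 CPM. All 25 named genes were still called after nuclei with UMIs of other lineages were left out on both sides, although of the calls over all genes only 304 of 496 and 242 of 343 were then kept.

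Of 19 basement membrane genes tested outside the panel, 7 were higher and 2 lower. For this list and each list below, the shares over all genes were 3.47% higher and 2.40% lower. The list median was 0.95 in control and 0.63 in Cxcl12-cKO on the log2 scale, and its summed level was 4895 against 2722 CPM in control and 4904 against 3005 CPM in Cxcl12-cKO. Among laminin chains, Lamb1 was at 147 against 33.2 CPM and Lamc3 at 106 against 10.98 CPM, both higher, while the epithelial chain Lama3 (3.81 against 21.3 CPM) was among the lower genes. Lama2 was the most abundant chain of the list at 1502 CPM and differed little, with log2 ratios of 0.14 and 0.22. Lama4 was at 464 CPM with ratios of 0.60 and 0.50. The laminin chains that set these nuclei apart were thus beta and gamma chains beside the alpha chain of the rule.

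Among collagens of the sheet, Col4a5, the partner chain of Col4a6, was at 532 against 95.7 CPM, with log2 ratios of 2.63 (2.497 to 2.763) and 2.31 (2.18 to 2.45). The multiplexins Col15a1 and Col18a1 were both higher, Col18a1 at 203 against 45.0 CPM. Col4a4 (8.49 against 3.06 CPM) and the nidogen Nid2 (68.2 against 31.9 CPM) were the remaining higher members. Without nuclei holding UMIs of other lineages, Col4a4 and Nid2 were no longer called and the summed list was at log2 1.08 in control and 0.79 in Cxcl12-cKO, from 0.85 and 0.71.

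**Figure D3:**
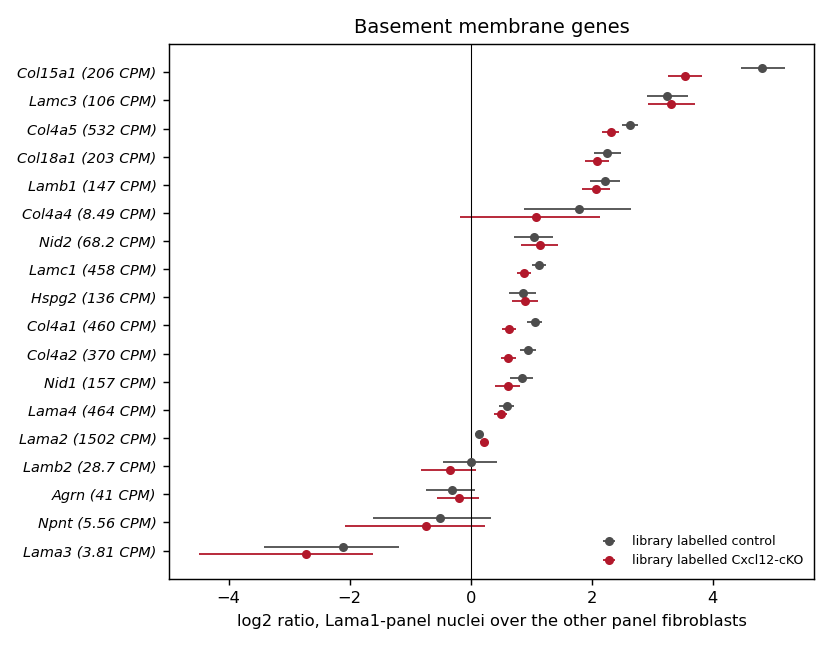
Log2 ratio of Lama1-panel nuclei over the other panel fibroblasts for 18 tested basement membrane genes outside the panel, with counting intervals, separately in the library labelled control (grey) and the library labelled Cxcl12-cKO (red); the level in Lama1-panel nuclei stands beside each name. Col15a1, Lamc3, Col4a5, Col18a1 and Lamb1 were above 2 in both libraries, and Lama2 lay near 0.

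Receptors of basement membranes differed less. Of 14 tested, the laminin-binding integrin Itga3 was higher (27.8 against 8.71 CPM) and the sarcoglycan Sgcd lower (254 against 545 CPM), with list medians of 0.24 and 0.43. Utrn, which anchors the dystroglycan complex, was the most abundant at 1040 CPM, followed by the collagen receptors Ddr2 (273 CPM) and Itga1 (262 CPM). None of these 3 was called.

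Fibrillar and scar matrix went partly the other way. Of 30 genes tested, 6 were lower, 3 were higher, and the list medians were -0.22 and -0.34. The lower genes were Col6a1, Col6a2, Col11a1 and the small proteoglycans Fmod, Ogn and Aspn, with Col11a1 at 237 against 602 CPM. The higher ones were periostin (Postn, 136 against 37.2 CPM), Col5a3 (57.7 against 20.2 CPM) and the basement membrane-associated fibulin Fbln2 (36.6 against 5.65 CPM). The most abundant genes were Col1a2 (1001 CPM), Dcn (649 CPM) and Col3a1 (642 CPM), none of them called. Col6a2 and Fmod were not called once nuclei with UMIs of other lineages were left out. Of 10 myofibroblast genes none was called, with medians of 0.20 and 0.22. The members with the most UMIs were Runx1 at 382 CPM, Fap at 194 CPM and Tpm1 at 189 CPM.

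Slc7a11 imports cystine for glutathione synthesis, and 22 other genes of cystine uptake, glutathione and iron storage were tested. None was called, and the list medians were 0.24 and 0.05. The ferritin chains Fth1 and Ftl1 were at 144 and 136 CPM and the oxidative stress regulator Nfe2l2 at 136 CPM. Ftl1 had a log2 ratio of 1.37 (1.17 to 1.56) in control and 0.37 (0.10 to 0.62) in Cxcl12-cKO, but 1 nucleus held 162 of the Ftl1 UMIs, of which control had 308 and Cxcl12-cKO 157. Per mouse Ftl1 was at 51.5 and 80.9 CPM in control and at 80.8 and 74.8 CPM in Cxcl12-cKO, which overlapped.

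Among 16 tested genes of klotho and fibroblast growth factor signalling, 5 were higher and none lower, beside 3.47% and 2.40% over all genes. The list medians were 0.35 and 0.29. The higher genes were the receptor Fgfr3 and 4 genes that signalling through these receptors is known to induce, Spry1, Spry4, Dusp6 and Etv4. Whether that signalling differed was not tested. Spry1 was at 15.8 against 2.16 CPM, with log2 ratios of 2.77 and 2.96, and Etv4 at 10.5 against 2.96 CPM. Dusp6 was at 10.8 against 4.38 CPM, Spry4 at 7.61 against 1.69 CPM and Fgfr3 at 14.3 against 5.49 CPM. All 5 were sparse, in 4.59% of nuclei or fewer, and Fgfr3 and Spry4 were not called without nuclei holding UMIs of other lineages. The abundant members were Fgfr1 (445 CPM), Fgf14 (321 CPM) and Fgfr2 (298 CPM), with log2 ratios between -0.52 and 0.48.

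Retinoic acid is a known product of meningeal fibroblasts. Of 14 genes tested, its synthetic enzymes Aldh1a2 (222 against 74.5 CPM) and Aldh1a1 (169.8 against 48.6 CPM) and the degrading enzyme Cyp26b1 (14.1 against 2.01 CPM) were higher. Aldh1a2 was almost as high in Ranbp3l-panel nuclei, at 204 CPM. The binding protein Crabp2 was lower, at 1.46 against 6.28 CPM, though not without nuclei holding UMIs of other lineages. The receptor Rarb was the member with the most UMIs, at 376 CPM, and the list medians were 0.08 and 0.10.

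Transporters divided these nuclei from their neighbours in both directions, with 10 of 39 tested genes higher and 8 lower. The glutamate transporter Slc1a3 was at 1188 against 406 CPM, the GABA transporter Slc6a13 at 314 against 53.7 CPM and the betaine transporter Slc6a12 at 46.8 against 7.55 CPM. Slc6a20a was at 759 against 352 CPM. The other higher genes were Slc16a12, Slc22a2, Slc22a6, Slc22a23, the manganese exporter Slc30a10 (77.6 against 13.9 CPM) and Abca8a (84.0 against 8.87 CPM). Slc6a13 was at 1.39 CPM in Pappa-panel and 156 CPM in Ranbp3l-panel nuclei, so it was shared with the latter. Slc22a2 was no longer called without nuclei holding UMIs of other lineages.

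The lower transporters were Slc4a10, Slc47a1, the taurine transporter Slc6a6 (52.1 against 182 CPM), the chloride cotransporter Slc12a2 (101 against 235 CPM), the vitamin C transporter Slc23a2 (305 against 824 CPM), Slc26a7 (37.2 against 190.3 CPM), the amino acid transporter Slc38a2 (551 against 1561 CPM) and the drug efflux pump Abcb1a (82.0 against 241 CPM). Slc24a3, an exchanger of sodium, calcium and potassium, was at 799 CPM and not called. The list median was 0.45 and 0.44, while its sum was at -0.58 and -0.45, with abundant members such as Slc4a10 and Slc38a2 among the lower genes. Sum and median also had opposite signs in at least 1 library for the receptor, fibroblast growth factor, BMP and TGF-beta, Wnt and junction lists.

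Of 37 meningeal transcription factors tested, 5 were higher and 5 lower, with medians of -0.22 and -0.26. The higher genes included the nuclear receptors Nr2f1 (211 against 89.9 CPM) and Nr2f2 (192 against 86.1 CPM), the Wnt effector Lef1 (107 against 35.9 CPM) and Glis3 (399 against 125 CPM). Bnc2 (1561 against 3899 CPM), Foxp2 (650.2 against 2774 CPM), Klf5 (46.8 against 105 CPM), Mecom (6.44 against 28.4 CPM) and Twist2 (7.90 against 23.1 CPM) were lower, Twist2 only with all nuclei kept. Foxp1 was at 2322 CPM in 95.01% of nuclei and Eya2 at 725 CPM, and neither was called.

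Signalling lists had calls in both directions. Of 29 BMP and TGF-beta genes, the ligands Bmp2 (9.95 against 0.633 CPM) and Bmp7 (106 against 49.1 CPM) and the latent TGF-beta binding protein Ltbp1 (183 against 89.2 CPM) were higher. The modulators Bmper (119.7 against 319.7 CPM) and Chrdl1 (4.10 against 14.1 CPM) and the target gene Id1 (2.93 against 8.97 CPM) were lower. The ligand Bmp6 (839 CPM), Tgfbr3 (502 CPM) and Fstl1 (354 CPM) were the most abundant, and the medians were -0.06 and -0.11. Bmp7 was not called without nuclei holding UMIs of other lineages.

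Of 21 Wnt genes, the ligand Wnt4 (38.9 against 4.06 CPM) and the inhibitor Dkk2 (28.4 against 12.1 CPM) were higher and the agonists Rspo2 (14.6 against 34.2 CPM) and Rspo3 (20.8 against 112 CPM) lower. The medians were -0.32 and 0.21, and the abundant members were the receptors Ror1 (1576 CPM) and Ror2 (400.5 CPM) and the effector Tcf7l2 (461 CPM). Dkk2 was in only 2.99% of nuclei and was not called without nuclei holding UMIs of other lineages.

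Of 30 guidance genes, 4 were higher and 6 lower, with medians of -0.35 and -0.36. The semaphorins Sema5a (148 against 65.98 CPM) and Sema6a (167 against 39.4 CPM), the ephrin Efnb2 (76.1 against 32.6 CPM) and its receptor Ephb1 (65.9 against 18.6 CPM) were higher. The secreted Slit2 (510.3 against 2104 CPM) and Slit3 (110.1 against 620.2 CPM), the netrin receptor Unc5c (461 against 980.4 CPM), Plxna4 (145 against 360.3 CPM), Efna5 (444 against 1014 CPM) and Epha3 (453 against 1016 CPM) were lower. The Slit receptors Robo1 (1479 CPM) and Robo2 (1071 CPM) and the plexin Plxna2 (1077 CPM) were abundant and not called. Epha3 was not called without nuclei holding UMIs of other lineages.

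Among 18 chemokine and lymphocyte support genes, Il34, the adhesion molecule Vcam1 (73.2 against 22.6 CPM) and the checkpoint ligand Cd274 (26.3 against 10.5 CPM) were higher and the alarmin Il33 lower (60.6 against 149.6 CPM), with medians of 0.21 and 0.19. Cd274 was not kept when nuclei with UMIs of other lineages were left out. Cxcl12 was at 168 CPM against 145 CPM and was highest in Pappa-panel nuclei, at 229 CPM. Of 46 interferon response genes only Irf8 (20.5 against 7.02 CPM) was called, and the medians were 0.23 and 0.15. Rnf213 (199 CPM) and Ddx60 (142 CPM) had the most UMIs.

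Of 20 cell junction genes, the cadherin Cdh19 was higher (50.9 against 9.50 CPM) and E-cadherin (Cdh1, 3.81 against 37.6 CPM) and Cdh18 (59.4 against 269 CPM) were lower, with medians of 0.19 and 0.04. Cdh1 was at 80.6 CPM in Ranbp3l-panel nuclei. Cdh19, also a gene of glial precursors, was not called without nuclei holding UMIs of other lineages. Cdh11 (905 CPM), Pard3 (674 CPM) and Tjp1 (420.1 CPM) led the list and were not called.

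The share of Lama1-panel nuclei was similar between the genotype labels when both mice were pooled. Of all lesional nuclei they were 5.98% (5.48 to 6.52%) under the control label and 6.17% (5.66 to 6.71%) under the Cxcl12-cKO label, and the log2 ratio of the shares was 0.04 (-0.14 to 0.23). The mice went opposite ways. The female control mouse had a share of 5.40% and the male one 7.14%, while the Cxcl12-cKO mice had 6.59% and 5.36%, so that the log2 ratio was 0.29 (0.00036 to 0.57) between females and -0.41 (-0.74 to -0.09) between males. Among nuclei of the 4 panels the shares were 17.6% and 18.4%, with log2 ratios of 0.47 between females and -0.54 between males. The difference between the mice exceeded that between the labels.

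Levels of the panel genes also depended on the mouse. Lama1 was at 740.1 CPM in the female and 1313 CPM in the male control mouse, and at 839 and 777 CPM in the Cxcl12-cKO mice. Slc7a11 was at 1388 and 2058 CPM in control and at 1792 and 1149 CPM in Cxcl12-cKO. For Lama1 both Cxcl12-cKO mice lay between the control mice, and for Slc7a11 1 lay between and 1 below them. Col4a6 was at 789.9 and 545 CPM against 525 and 569 CPM, and Kl at 34.3 and 56.3 CPM against 43.0 and 45.3 CPM, again with overlap. Dcdc2a was at 105 and 178 CPM in control and 278 and 167 CPM in Cxcl12-cKO, and the pooled log2 ratio of 0.82 (0.58 to 1.06) came from the females. Only Col13a1 did not overlap, at 234 and 139 CPM in control and 89.9 and 110.2 CPM in Cxcl12-cKO, a log2 ratio of -0.76 (-1.06 to -0.48). Of 8428 genes compared between the labels, both Cxcl12-cKO mice were below both control mice for 17.2% and above them for 15.7%. Such a separation was therefore common, and Col13a1 was also a gene of the rule. Nuclei at the limit of the osteoblast list were 50 in control, of which 42% held Col13a1, and 28 in Cxcl12-cKO, of which 17.9% did. Without nuclei holding UMIs of other lineages the Col13a1 ratio was -0.38 (-0.73 to -0.05).

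**Figure D4:**
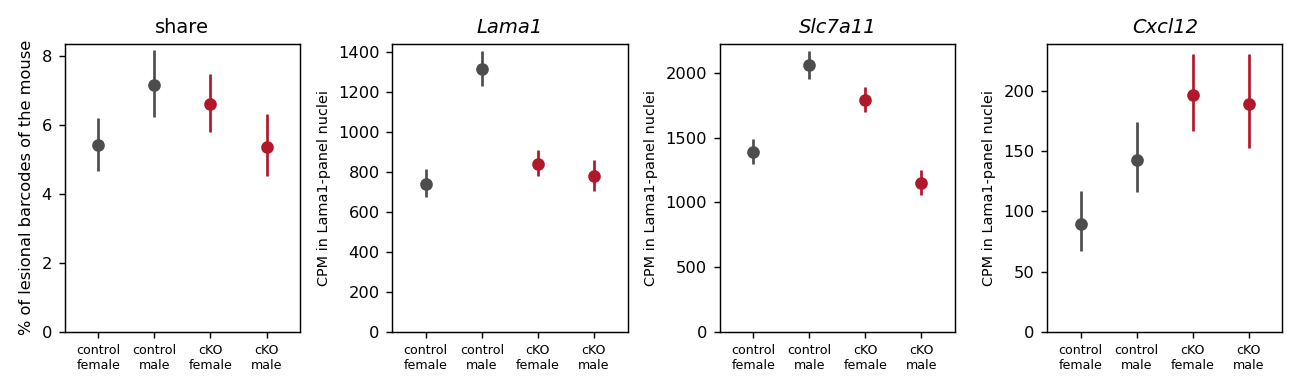
Share of Lama1-panel nuclei among each mouse's lesional nuclei (percent) and levels (CPM) of Lama1, Slc7a11 and Cxcl12 in the Lama1-panel nuclei of the 4 mice, with counting intervals and axes from 0. The share, Lama1 and Slc7a11 overlapped between the labels, whereas Cxcl12 was at 89.3 and 143 CPM in the control mice and at 197 and 189 CPM in the Cxcl12-cKO mice.

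Within Lama1-panel nuclei, 8428 genes were compared between the genotype labels. A gene was called where its log2 ratio passed 1 and both Cxcl12-cKO mice lay on the same side of both control mice, which gave 35 genes higher (0.415%) and 59 lower (0.700%) in the library labelled Cxcl12-cKO. Without the limit on size, both Cxcl12-cKO mice were above both control mice for 1319 genes (15.7%) and below for 1447 (17.2%). The median log2 ratio over all genes was -0.01. The genes with the largest differences by counting error were next examined one by one.

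The 12 lowest genes in the library labelled Cxcl12-cKO were all called, and they included S100a9, Bglap, Fat3, Csf2rb, S1pr1, Gpc5, Fgf13, Thbs1, Cdh20, Smpd3 and Disp3. S100a9, an alarmin of neutrophils, was at 622 CPM in control where 1 nucleus held 1007 of the 1039 UMIs of both libraries. Bglap, a gene of bone-forming cells, was at 48.1 and 18.8 CPM in the control mice and at 10.4 and 0 CPM in the Cxcl12-cKO mice, and the osteoblast list was at 632 CPM in control and 327 CPM in Cxcl12-cKO. Fat3, an atypical cadherin, was at 555 and 270.1 CPM against 71.7 and 132 CPM. Without nuclei holding UMIs of other lineages, Bglap had no UMI, the log2 ratio of Fat3 was 0.09 (-0.57 to 0.76), and none of the 12 was called.

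Several of the remaining lower genes were sparse or held by few nuclei. Of 77 Thbs1 UMIs, 26 were in 1 nucleus, and of 145 Gpc5 UMIs, 38 were. Csf2rb, a cytokine receptor chain of myeloid cells, had 44 UMIs in 1 nucleus, of 64 in control and 16 in Cxcl12-cKO, and was at 18.9 and 8.67 CPM against 2.61 and 5.90 CPM. S1pr1, a receptor for sphingosine 1-phosphate, was at 20.6 and 17.3 CPM against 5.21 and 1.97 CPM, with a log2 ratio of -2.27 and, without nuclei holding UMIs of other lineages, -1.84 (-3.37 to -0.64). Fgf13, an intracellular member of its family, was at 148 and 91.0 CPM against 63.9 and 43.3 CPM, with a log2 ratio of -1.39 both ways. Cdh20, Smpd3 and Disp3 were at 106, 60.1 and 55.0 CPM in the female control mouse and at 24.8, 15.6 and 15.6 CPM in the female Cxcl12-cKO mouse.

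The highest genes were Cdc20b, Synpr, Mmp3, Dio2, Col6a5, Gm42047, Atp6v0d2, Chrm3, Moxd1, Creb5, Zbtb41 and Rab7b, of which 10 were called. The exceptions were Cdc20b, with 49 of 55 UMIs in 1 nucleus, and Col6a5. Mmp3, a matrix metalloproteinase, was at 1.72 and 14.4 CPM in the control mice and 116 and 92.5 CPM in the Cxcl12-cKO mice, a log2 ratio of 2.06 (1.53 to 2.67). Dio2, the enzyme that activates thyroid hormone, was at 20.6 and 21.7 CPM against 103 and 60.998 CPM, a log2 ratio of 1.69 (1.19 to 2.25). For both genes the mice of the labels did not overlap. For Mmp3 this rests on few control UMIs. Of 33 under the control label, 1 was in nuclei of the female and 10 in nuclei of the male mouse. The remainder were in nuclei with transcripts of both sexes or of neither. The pooled control level counts them and lay above both control mouse values. The muscarinic receptor Chrm3 was at 72.1 and 36.1 CPM against 106 and 187 CPM, and the transcription factor Creb5 at 24.0 and 26.0 CPM against 75.6 and 102 CPM.

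Mmp3, Dio2, Chrm3 and Creb5 were the 4 of these 12 still called without nuclei holding UMIs of other lineages, with log2 ratios of 3.22 (2.35 to 4.38), 1.82 (1.20 to 2.53), 1.77 (1.34 to 2.23) and 1.63 (0.93 to 2.45). Chrm3 was not called among nuclei with a Lama1 UMI alone, and its log2 ratio between the females was 0.54 (-0.0054 to 1.12). Mmp3 was carried by 44 nuclei. When the panels were summed after thinning, which left 480 nuclei, its log2 ratio was -0.19 (-1.77 to 1.35), so its direction depended on how the nuclei were chosen. Atp6v0d2, a proton pump subunit of macrophages and osteoclasts, had 54 UMIs in control and 163 in Cxcl12-cKO, of which 5 and 37 were left. Synpr (45.6 CPM in the female Cxcl12-cKO mouse), the copper enzyme gene Moxd1, Gm42047, Zbtb41 and the endosomal Rab7b were not called without those nuclei.

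**Figure D5:**
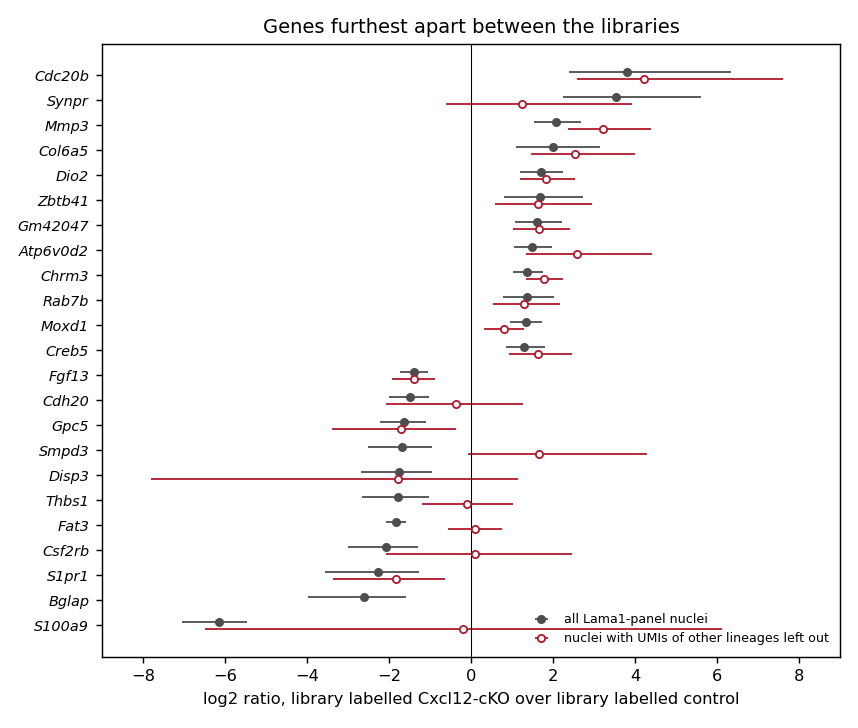
Log2 ratio of the Cxcl12-cKO label over the control label, with counting intervals, for the reported genes among the 12 highest and 12 lowest, in all Lama1-panel nuclei (filled) and after nuclei with UMIs of other lineages were left out (open; Bglap then had no UMI). Fat3, Csf2rb and Thbs1 lay near 0 without those nuclei, while Mmp3, Dio2, Chrm3 and Creb5 stayed above 1. S100a9 was then at 0.842 CPM over both libraries, too few UMIs for its ratio to be read.

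Over all genes, leaving out nuclei with UMIs of other lineages gave 36 higher and 17 lower genes, of which 11 and 4 were shared with the calls above. The shared higher genes were Gm13710, Rgs3, Col8a2, Creb5, Gm15987, 2310001H17Rik, Mmp3, Col6a6, Col7a1, Dio2 and Chrm3. Col7a1, which forms anchoring fibrils, was at 72.1 and 99.7 CPM in control and 179.8 and 122 CPM in Cxcl12-cKO, with log2 1.03 (0.72 to 1.34), and was not called among nuclei with a Lama1 UMI alone. Col8a2 was at 15.5 and 8.67 CPM against 30.0 and 25.6 CPM, and Col6a6 at 5.15 and 14.4 CPM against 27.4 and 17.7 CPM. The shared lower genes were Pde11a, Ajap1, Ephb1 and H2bc6. Like Col7a1, the shared genes Gm15987, 2310001H17Rik, Chrm3 and Pde11a were not called among nuclei with a Lama1 UMI alone. Ephb1 was at 134 and 75.1 CPM against 43.0 and 37.4 CPM, with log2 -1.10 (-1.52 to -0.69) and, without those nuclei, -1.22.

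Between the labels 7 members of the gene lists were called, 1 higher and the rest lower, beside 0.415% higher and 0.700% lower over all genes. The BMP and TGF-beta list had 2 called of 22 tested. The Wnt list had 1 of 13, the fibroblast growth factor list 1 of 10, the guidance list 1 of 28 and the interferon list 1 of 34. Beside Ephb1 and Fgf13, Slc22a2, the BMP receptor Bmpr1b (99.0 against 44.6 CPM), the BMP target Id3 (27.9 against 13.6 CPM) and the interferon-induced Mx2 (23.1 against 10.7 CPM) were lower and Rspo2 (7.29 against 21.5 CPM) was higher under the Cxcl12-cKO label. Of these only Ephb1 was still called without nuclei holding UMIs of other lineages. Bmpr1b, Id3, Mx2 and Rspo2 were also not called among nuclei with a Lama1 UMI alone. The basement membrane list had none called of 15 tested, with a summed log2 ratio of 0.00 (-0.04 to 0.05) and log2 differences of 0.01 between females and -0.09 between males. The fibrillar matrix list had none of 26 and the transporter list 1 of 36. The interferon response list summed to 2019 CPM in control and 1818 CPM in Cxcl12-cKO, a log2 ratio of -0.15 (-0.22 to -0.08), with a median of -0.18 over 34 tested members. Per mouse it was at 2294 and 1871 CPM in control and 2305 and 1458 CPM in Cxcl12-cKO. The log2 ratio was 0.01 (-0.10 to 0.11) between the female and -0.36 (-0.49 to -0.23) between the male mice.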

How the data were processed

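Members and gene lists were chosen with earlier results of these data known. The authors deposited raw UMI counts per gene and barcode for lesion and parenchyma of each library, made per the submitters' notes and file headers with Cell Ranger 9.0.0 on GRCm39; the sources used here do not say whether intronic reads were counted. The 4 matrices held 33696 gene features, 52 of which share a symbol with another, and 0 per-sample columns were left unused; tag libraries were represented only through the split into regions. The minimum of 757 UMIs is the 2.5th percentile over all barcodes. No doublet caller was run. Lesional control and Cxcl12-cKO nuclei held a median of 2941 and 2923 UMIs.

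Counts were summed per class, library and mouse (female by Xist, male by Ddx3y, Uty, Kdm5d or Eif2s3y), with Python 3.11.15, numpy 2.4.6, scipy 1.17.1 and pandas 2.3.3. Ratios had 0.5 added to each sum and exact conditional intervals; shares had Clopper-Pearson and levels Poisson intervals. Genes needed 20 UMIs in each library (panel contrast) or 50 in both together (genotype contrast), and genes of the rule, mitochondrial and sex-linked genes were left out. Calling was tested on counts simulated from a pooled profile, without spread between mice or between single nuclei, which that test therefore does not cover. Named genes were the 15 highest and 10 lowest called genes of the panel contrast and the 12 highest and 12 lowest of the genotype contrast with 1 direction in both sexes, all by the interval bound nearest 0, plus the 3 list members with the most UMIs and every called list member. Alternatives covered the rule's thresholds, depth, sex, scaling and filters; 3 were added after seeing the data. Some genes that met these rules are not reported here.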

Additional observations from a re-analysis of the deposited data

Results flagged for a closer look

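In 4 results the female and the male mice went opposite ways between the genotype labels. The share of Lama1-panel nuclei among lesional nuclei had a log2 ratio of Cxcl12-cKO over control of 0.29 (0.00036 to 0.57) between the females and -0.41 (-0.74 to -0.09) between the males. Among nuclei of the 4 panels the ratios were 0.47 (0.19 to 0.76) and -0.54 (-0.86 to -0.21). Lama1 within Lama1-panel nuclei was at 0.18 (0.00317 to 0.36) and -0.76 (-0.93 to -0.58), and Slc7a11 at 0.37 (0.24 to 0.50) and -0.84 (-0.98 to -0.70). Each sex was 1 mouse per genotype, so these differences were not tested.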

How the results depend on the processing

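No paired analysis was possible because each genotype had 1 library, which leaves no replicate to fit; values within each sex are given without a test. Depth limited the sparse genes: of the panel, Kl gave 153 UMIs. Over the alternatives, the 25 named genes of the panel contrast never changed direction (290 of 400 values stayed within the counting interval), and 24 of 496 values of the genotype contrast did; unless stated, the cause was not tested. With the female mice alone the share ratio was 0.29, Cxcl12 1.13, the interferon list 0.0069, the control basement membrane list 0.90, Lama1 0.18 and Slc7a11 0.37, and the calls were 300 higher against the other panels, and 87 higher and 197 lower between labels. With the male mice alone the share was -0.41, Cxcl12 0.40, the interferon list -0.36, the Cxcl12-cKO basement membrane list 0.66, Dcdc2a -0.085 and Col4a6 0.063. Panels summed after thinning gave 289 higher, 22 and 31 calls, with Cxcl12 0.32, the interferon list -0.35, the control basement membrane list 0.97, Cdc20b -0.026, Mmp3 -0.19, Moxd1 -0.30, S100a9 2.51 and Gpc5 0.16. With no UMI of the exclusion genes 38 genes were lower between labels, the control basement membrane list was at 0.89 and Cdc20b at -0.094. That list was also at 0.89 with a panel sum of 4 or more and without Col13a1 in the panel (Smpd3 1.53), while without Slc7a11 it was 1.03 and 0.88 (Csf2rb 0.93). Without nuclei of both sexes the Cxcl12-cKO list was at 0.66. Without the tenth of nuclei with the most UMIs, the 2 lists were at 0.80 and 0.61, the interferon list at -0.072 and Cdc20b at -0.46. Median-of-ratios scaling gave 0.75 and 0.62, with 422 genes higher and 432 lower against the other panels, and means over nuclei 0.80 and 0.67. No minimum of summed UMIs gave 1212 higher against the other panels, and 1420 and 784 between labels, among genes with few UMIs that the minimum removes.

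Chosen after seeing the data, nuclei with a Lama1 UMI alone gave 620 lower genes against the other panels, 18 lower between labels, basement membrane 1.18 and 0.93, Cdc20b -0.90, S100a9 2.16, Fat3 0.69, Csf2rb 1.60 and Smpd3 1.27. Nuclei with 2 or more panel genes alone gave 32 lower between labels, basement membrane 1.06 and 0.85, S100a9 0.61, Csf2rb 1.15 and Smpd3 1.34. In nuclei with a Lama1 UMI S100a9 was at 0.868 CPM, too few UMIs for its ratio to be read. Without nuclei holding UMIs of other lineages, 17 genes were lower between labels, Cxcl12 was at 0.38, the interferon list at -0.22, basement membrane at 1.08 and 0.79, Fat3 0.089, Csf2rb 0.10 and Smpd3 1.65.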
